A study of Mus musculus with 24 samples.

Results

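Deep intronic protein-protected sites (PPSs) are the stretches of pre-mRNA far from any exon that resisted nuclease digestion while proteins were still in place. A PPS was counted here when it lay in an intron of a protein-coding gene on the same strand, at least 100 nt from every annotated exon of either strand, touched no snoRNA, scaRNA, snRNA or miRNA gene, and was not 20 to 40 nt long. Of 356432 PPSs outside that length range (460777 of all lengths), 130407 met the rule: 39922 of 114907 at day 0, 46596 of 119487 at day 2 and 43889 of 122038 at day 4. PPSs of any day that shared at least 1 nt of the same strand were joined, which left 85907 separate regions in 6197 host genes.

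The sites came from protein interaction profile sequencing (PIP-seq) of MEL cells, a mouse erythroleukemia line blocked at an early erythroid stage that was untreated (day 0) or grown with DMSO for 2 or 4 days to induce differentiation. No genetic change was named for any group, and a single line models the lineage. Each of the 2 replicates per day was crosslinked with formaldehyde and split into footprinting and structure only libraries, each digested with an RNase specific for single-stranded (ssRNase) or double-stranded RNA (dsRNase), giving 24 libraries. The authors called PPSs as excess coverage of a footprinting library over its structure only partner, so each of the 12 library pairs yields 1 set of calls. Read depth per library cannot be seen in the deposited lists, and p-values measure only the spread between these samples. Of 10 erythroid marker genes, 8, 9 and 10 carried an exonic PPS at days 0, 2 and 4, and none of 10 markers of other cells (lymphoid, myeloid, hepatic, epithelial and others) did on any day.

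Introns are transcribed together with exons and removed by the spliceosome, usually soon after the polymerase has passed, so intronic RNA is scarce in most preparations. While they last, introns are bound along their length by hnRNPs, SR proteins and other nuclear RNA-binding proteins that steer splice site choice, polyadenylation and decay. During erythroid maturation the genes of the red cell membrane skeleton, heme synthesis and iron uptake are switched on, while genes of the proliferating progenitor are shut down.

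The sequences below show what such sites looked like in the host genes on which the results turn. For each gene the highest-scoring site of at most 120 nt with no soft-masked (repeat) base, no RefSeq exon and calls of both replicates is printed, read 5′ to 3′ on the transcript strand from GRCm38.p6 (the mm10 assembly), with the words TGATGA and TAGGG in capitals. Sptb and Cpeb4 are shown at day 4, when they had more sites than at day 0, and Lrmda, St6galnac3 and Nfia at day 0, when they had more than at day 4. Zfpm1, shown at day 4, held the cluster with most regions, although its printed site lies outside that cluster.
Sptb, intron 1, chr12:76668264-76668338, minus strand: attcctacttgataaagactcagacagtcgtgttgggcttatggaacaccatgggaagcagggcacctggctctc
Cpeb4, intron 2, chr11:31897627-31897710, plus strand: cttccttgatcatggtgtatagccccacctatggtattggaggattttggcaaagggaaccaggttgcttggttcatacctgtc
Lrmda, intron 2, chr14:22457815-22457904, plus strand: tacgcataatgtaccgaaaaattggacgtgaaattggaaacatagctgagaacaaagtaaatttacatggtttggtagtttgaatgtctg
St6galnac3, intron 1, chr3:153692468-153692586, minus strand: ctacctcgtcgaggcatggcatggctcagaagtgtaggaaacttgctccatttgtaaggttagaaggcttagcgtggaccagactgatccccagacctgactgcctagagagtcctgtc
Nfia, intron 2, chr4:97924691-97924795, plus strand: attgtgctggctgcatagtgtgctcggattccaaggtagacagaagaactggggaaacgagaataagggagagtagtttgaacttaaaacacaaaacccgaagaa
Zfpm1, intron 1, chr8:122296744-122296851, plus strand: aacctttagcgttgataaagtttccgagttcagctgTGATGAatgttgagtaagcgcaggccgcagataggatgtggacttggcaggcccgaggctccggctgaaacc

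Deep intronic PPSs were found mainly with the ssRNase, and the balance between the nucleases changed by day 4. With ssRNase, 22996 and 21206 deep intronic PPSs were called in replicates 1 and 2 at day 0, 21480 and 32123 at day 2, and 17036 and 18605 at day 4. With dsRNase the corresponding numbers were 4669 and 6132, 7636 and 2384, and 18235 and 11704. The dsRNase sets of day 4 therefore lay above every dsRNase set of day 0 and day 2, while the ssRNase sets of day 4 lay below every ssRNase set of the earlier days. Sites seen with ssRNase alone made up 75.1% of the list at day 0, 79.7% at day 2 and 40.1% at day 4, and sites seen with dsRNase alone 11.3%, 8.30% and 36.9%. Counted per replicate over both nucleases, the numbers were 25658 and 25052, 26426 and 33170, and 30765 and 26671, so the ranges of days 2 and 4 overlapped each other and lay above day 0. With 2 replicates a day, an exact test cannot go below p = 0.33.

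**Figure D1:**
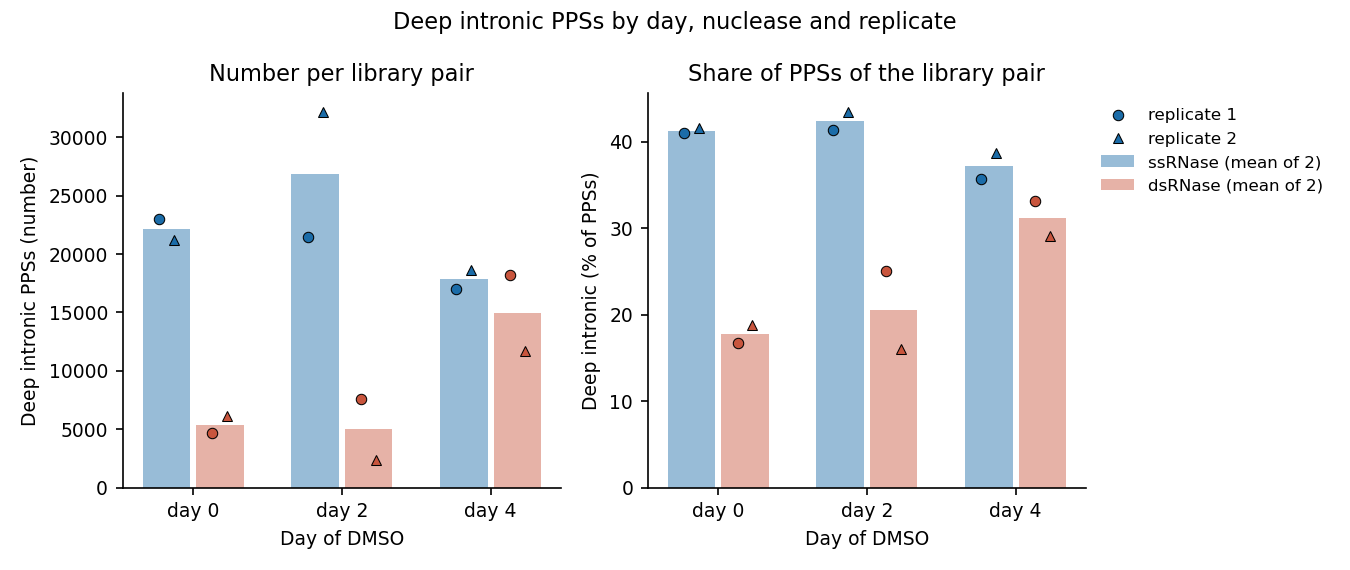
Deep intronic PPSs by day of DMSO (x axis), as a number (left) and as a percent of all PPSs of the library pair (right); points are the 2 replicates and bars their mean, in blue for ssRNase and red for dsRNase. The ssRNase sets lie above the dsRNase sets of the same replicate in share on each day, and the gap is narrowest at day 4.

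As a share of all PPSs of a library pair, deep intronic sites made up 40.3% ± 2.69 (SD, n = 6) with ssRNase and 23.2% ± 7.07 with dsRNase, and ssRNase was higher in 6 of 6 day-replicate pairs. The pairs ranged from a gap of 2.58 percentage points (day 4 replicate 1) to 27.4 (day 2 replicate 2). In an exact two-sided sign-flip permutation test p was 0.03125, the smallest that 6 pairs can give, and 0.075 after Benjamini-Hochberg adjustment over the 12 planned comparisons, so neither this nor any other of the 12 passed the threshold. Of deep intronic sites 79.6% ± 14.9 and of sites wholly in coding sequence 57.2% ± 9.28 had an ssRNase call in their replicate (higher in 6 of 6, exact adjusted p = 0.075). Against intronic sites within 100 nt of an exon, of which there were 10343, the ssRNase share did not separate (81.3% ± 12.4, higher in 3 of 6, exact adjusted p = 0.30).

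The sites were short, sense-strand stretches of intermediate base composition. Their median length was 64, 58 and 60 nt at days 0, 2 and 4, with 95th percentiles of 136, 116 and 127 nt. The 5th percentiles, 43, 42 and 42 nt, lay just above the length cut. With all lengths kept there were 44860, 63382 and 53686 sites, against 39922, 46596 and 43889. The cut thus took unequal parts of the days and shaped both lengths and numbers. Per replicate the median was 64.2 nt ± 3.25, against 62.3 nt ± 3.14 in near-exon intronic sites (longer in 6 of 6, exact permutation adjusted p = 0.075). This difference of 1.83 nt was 0.17 nt with sites of 20 to 40 nt kept and 0.33 nt in PPSs called in 1 replicate only. GC content was 45.002% ± 0.655, below the 50.6% ± 1.14 of coding sites in 6 of 6 (exact adjusted p = 0.075) and 44.96% ± 0.889 in near-exon intronic sites, a difference that did not separate (higher in 3 of 6, exact adjusted p = 0.81). Within the same eligible sequence only 100 to 682 PPSs per call set lay on the antisense strand, so sense sites outnumbered antisense sites 23.8-fold to 47.1-fold. By nuclease, median length (66.5 nt with ssRNase and 65.3 nt with dsRNase, exact adjusted p = 0.61) and GC content (45.5% and 44.4%, exact adjusted p = 0.19) did not separate.

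In 2 library pairs the sites were lopsided between the strands of the genome. Of the deep intronic sites of day 0 ssRNase replicate 2, 71.3% lay on the plus strand, and of day 4 ssRNase replicate 2 42.0%, against 51.0% to 54.3% in the other 10 call sets. The tilt was present in coding sites of the same pairs too (61.0% and 44.2%). Its part in the comparisons of single genes was measured by scaling each gene within its strand, as given with those results.

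Few single sites were seen again and again. Of 85907 regions, 45596 (53.1%) were found in 1 of the 12 call sets, 481 in 9 or more and 15 in all 12. At all 3 days 10030 regions (11.7%) were found, while 16885 appeared at day 0 only, 19692 at day 2 only and 18956 at day 4 only. The replicates of one day shared 39.6% to 51.2% of their regions, and replicates of different days shared 27.5% to 39.0%, so the lowest share within a day lay just above the highest between days. The share of sites resting on 1 call was 69.2%, 69.1% and 63.2% by day. It was 70.3%, 70.1% and 64.8% in near-exon intronic sites and 64.5%, 64.3% and 58.8% in coding sites. Counted per replicate, deep intronic sites did not separate from near-exon sites (exact permutation adjusted p = 0.21). They did not separate from coding sites either (exact permutation adjusted p = 0.125).

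The sites differed from the sequence beside them in short words. For 47593 sites (36.5%) both flanks of equal length were eligible and free of any PPS, and 10 words were searched on the transcript strand. TGATGA, the consensus of a C box as found in box C/D RNAs, was in 3.25% ± 0.193 of sites and 1.80% ± 0.111 of flanks (SD, n = 6). TAGGG, a core that hnRNP A1 is known to bind, was in 5.91% ± 0.187 of sites and 4.90% ± 0.182 of flanks. Both were more frequent in the sites of 6 of 6 samples (exact two-sided sign-flip permutation p = 0.03125, adjusted over the 10 words 0.0446). A site with calls of both replicates counts in both samples of its day. Of all deep intronic PPSs 27.0%, 27.9% and 30.9% by day had such calls. The 6 samples are therefore not independent, in this and the other word comparisons.

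Pyrimidine and repeat-like words went the other way. TTTTTT, bound by U-rich binding proteins such as TIA1, was in 1.56% ± 0.212 of sites and 6.21% ± 0.469 of flanks, and TTCTCT, a polypyrimidine tract word bound by PTBP1, in 1.69% ± 0.321 and 4.69% ± 0.489. CACACA (1.41% of sites, 3.17% of flanks), GGGAGG (1.66%, 2.85%) and the polyadenylation signal AATAAA (2.34%, 3.77%) were also less frequent in sites in 6 of 6 samples, with the same exact adjusted p of 0.0446. GTGTGT (exact adjusted p = 0.078), the RBFOX word TGCATG (exact adjusted p = 0.14) and the STAR protein word ACTAAC (exact adjusted p = 0.22) did not pass. Sites and flanks also differed in repeats and base composition: 5.81% ± 0.152 of site bases and 15.9% ± 0.783 of flank bases were soft-masked as repeats, and GC content was 43.98% ± 0.944 in sites and 42.62% ± 0.342 in flanks (exact permutation p = 0.03125 each). The part of base composition in the word differences was not tested. With masked sequence left out, 6 of the 7 words kept their direction in 6 of 6 samples, each with the smallest exact permutation p (0.03125). Their exact adjusted p became 0.0521 because 6 instead of 7 words reached that smallest p. None could then pass, so this says nothing about any one of the 6. AATAAA was lower in sites in 5 of 6. The difference between sites and flanks shrank to -1.09 percentage points from -4.65 for TTTTTT, to -0.91 from -1.75 for CACACA and to -0.61 from -1.43 for AATAAA. It was 1.25 instead of 1.45 for TGATGA, 0.89 instead of 1.01 for TAGGG, -2.26 instead of -3.00 for TTCTCT and -1.02 instead of -1.19 for GGGAGG.

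To show these words in place, high-scoring sites of different genes with TGATGA (3 sites) or TAGGG (2 sites) are printed. They score highest among sites with free flanks under the same limits on length, masking, exons and replicates, once some sites were left out. Left out were sites already printed, such as that of Zfpm1, those of predicted or clone symbols, and those of a chromosome not used for printing.
Srpk2, chr5:23619104-23619161, minus strand: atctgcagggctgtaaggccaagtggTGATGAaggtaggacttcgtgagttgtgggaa
Aff4, intron 1, chr11:53352323-53352391, plus strand: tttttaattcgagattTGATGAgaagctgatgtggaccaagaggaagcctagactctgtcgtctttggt
Traip, intron 10, chr9:107966757-107966814, plus strand: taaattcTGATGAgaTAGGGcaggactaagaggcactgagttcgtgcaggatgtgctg
St6galnac3, intron 1, chr3:153652092-153652181, minus strand: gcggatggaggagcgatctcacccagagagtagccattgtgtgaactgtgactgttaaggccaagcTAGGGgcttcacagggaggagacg
Ahcyl2, intron 1, chr6:29783286-29783399, plus strand: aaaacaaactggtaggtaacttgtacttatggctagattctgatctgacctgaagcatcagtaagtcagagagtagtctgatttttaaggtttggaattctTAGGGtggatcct

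Within introns the sites thinned from the 5′ to the 3′ end. In introns of 10 kb or more, which held 46569 regions, cut into 10 equal parts, the density was 4.32 regions per 10 kb of eligible sequence in the first part and 1.35 in the last, a 3.20-fold drop, and it was lower in each part than in the one before. The first part held 15.9% and the last 5.26% of the regions. The drop was seen in each of the 6 day-replicates, where it ranged from 3.16-fold (day 4 replicate 1) to 3.58-fold (day 2 replicate 2), in ssRNase sets (3.34-fold to 3.58-fold) and in dsRNase sets (3.14-fold to 4.71-fold). It was 3.52-fold in first introns and 2.95-fold in later ones, and 3.18-fold without the 10 leading host genes. These values are descriptions over regions that share transcripts, with no test.

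**Figure D2:**
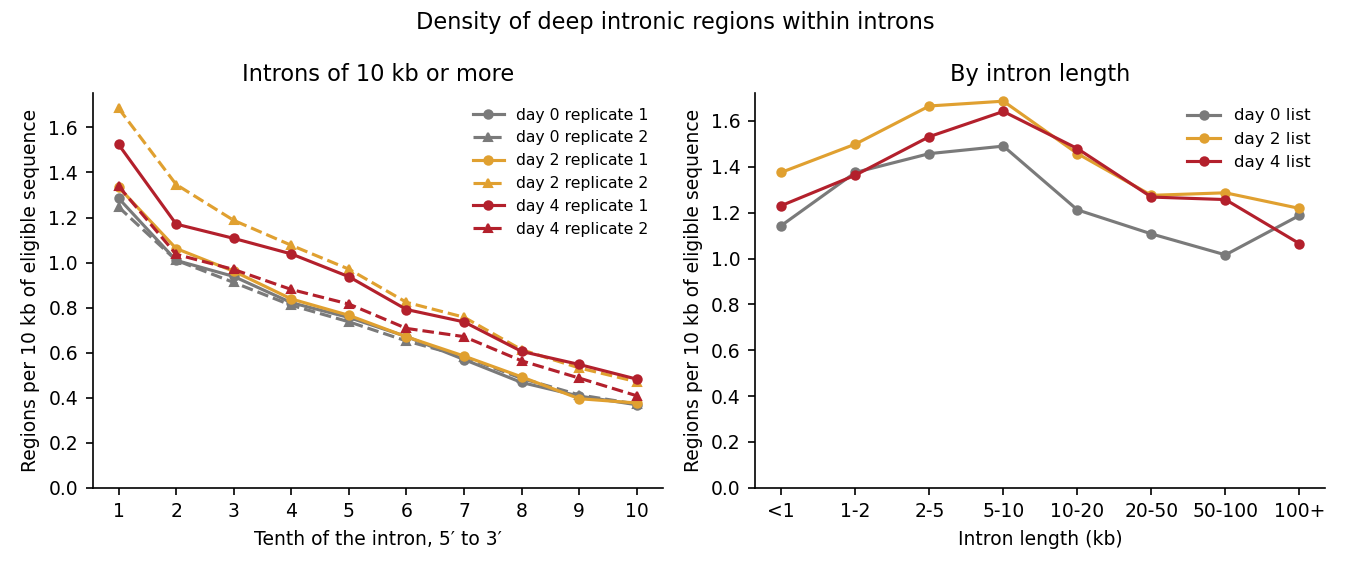
Left, regions per 10 kb of eligible sequence in each of 10 equal parts of introns of 10 kb or more, 5′ to 3′, with a line for each of the 6 day-replicates. Right, the same density for each day's list by intron length in kb. All 6 lines on the left end lower than they start, and on the right the density is highest for introns of 5 to 10 kb.

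First introns carried slightly more regions than their eligible length alone would give. Of 81536 regions in transcripts with 2 or more introns, 25388 (31.1%) lay in the first intron, against 28.7% had each gene's regions followed its own eligible length (ratio 1.09). The ratio was 1.12 in both replicates of day 0, 1.12 in both of day 2, and 1.08 and 1.07 at day 4. First-intron shares were higher with ssRNase in 6 of 6 pairs, by 0.999 percentage points on average (33.0% ± 0.988 against 32.02% ± 0.536, exact permutation adjusted p = 0.075). Pooled over genes, density was 3.29 regions per 10 kb in first introns, 3.27 in intron 2, 2.61 in intron 3 and 2.15 beyond intron 10.

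Site density was highest in introns of intermediate length. It was 2.71 regions per 10 kb in introns under 1 kb, reached 3.25 in introns of 5 to 10 kb and was 2.28 in introns of 100 kb or more. At day 0 the introns of 100 kb or more (1.19 per 10 kb) were denser than those of 50 to 100 kb (1.02), an order that was turned at day 4 (1.07 and 1.26). These densities pool all genes, and single genes can weigh heavily in the longest class. Lrmda, whose intron 2 has 550520 nt, had 1249 PPSs at day 0 and 791 at day 4. St6galnac3, with 509 kb of eligible sequence and 4 introns, had 475 and 52. The order was not examined without such genes.

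The host genes were 30.7% of the 20186 protein-coding genes with eligible sequence, and a small number of them held much of the total. A host gene had a median of 5 regions, 1262 genes had 1, and 326 genes with 50 or more held 39.7% of all regions. The most regions lay in Lrmda (leucine-rich melanocyte differentiation associated), with 1567 in 1021 kb of eligible sequence, none of them in the first intron of its reference transcript. Asap1, an Arf GTPase-activating protein, followed with 544, the sialyltransferase gene St6galnac3 with 537, and Runx1, a transcription factor of blood stem and progenitor cells, with 497. The others of the first 10 were Camta1 (308), Smyd3 (302), Slc25a21 (301), Atrnl1 (277), the apoptosis inhibitor gene Bcl2 (268) and Sptb (265). RefSeq exons were touched by 120 PPSs of Smyd3, 55 of Lrmda, 54 of Camta1, 32 of St6galnac3 and 31 of Bcl2.

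Per length of eligible sequence the order was different, and small genes led it. Crebzf had 5 regions in 0.892 kb (56.1 per 10 kb), but 10 of its 10 PPSs touched an exon of the RefSeq annotation. Preb (53.6), Tmem86b (51.0), the amino acid transporter gene Slc38a2 (49.9) and the ribosomal protein gene Rpl31 (49.8) came next, each with 5 to 10 regions. Rps4x (43.3) and Rpl23 (40.9), 2 other ribosomal protein genes, and Ccnl1 (41.6), a cyclin that works with splicing kinases, were in the same range, and 6 PPSs of Rps4x and 13 of Ccnl1 touched RefSeq exons. Bsg, which encodes the blood group protein basigin, had 20 regions (44.8 per 10 kb), all in its first intron. Zfpm1, which encodes FOG1, the partner of GATA1, joined a high density (44.5 per 10 kb) with 222 regions in 49.9 kb. Over all host genes the density was 2.62 per 10 kb, and 4.55% of deep intronic PPSs touched a RefSeq exon.

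Many host genes were called higher, and many lower, at day 4 than at day 0. Each gene's PPSs were counted per 1000 deep intronic PPSs of the replicate, and a gene was called higher or lower when both later replicates lay above or below both of day 0. With no difference between days, 2 replicates would lie apart from 2 others in a share of up to 0.33, both directions together. A call thus describes a gene and does not test it. Genes with few PPSs were called too, such as Mcm6 (1 and 1 at day 0, 0 and 0 at day 4). Of 4175 genes with 3 or more regions, 1160 (27.8%) were called higher and 1314 (31.5%) lower at day 4, and 1171 (28%) higher and 1000 (24%) lower at day 2. Scaled within the strand, the shares were 31% and 29.4% at day 4 and 28.7% and 24.3% at day 2. By plain number of PPSs, 1241 genes were higher and 553 lower at day 2, and 1191 higher and 920 lower at day 4. The lopsided strands showed in the first set: 34.2% of minus-strand but 21.7% of plus-strand genes were higher at day 4, against 30.6% and 31.4% within the strand. A gene with more intronic PPSs may have more pre-mRNA or more protection per molecule, and the lists cannot tell these apart.

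Sptb, which encodes the beta spectrin of the red cell membrane skeleton, had the largest difference upward from day 0 to day 4. It had 4 and 3 PPSs in the replicates of day 0, 98 and 106 at day 2, and 188 and 192 at day 4. That is 0.156 and 0.120 per 1000 at day 0 against 6.11 and 7.20 at day 4. The difference was seen with both nucleases: with ssRNase 4 and 2 PPSs became 124 and 154, and with dsRNase 0 and 1 became 115 and 80. Of its 265 regions, 145 lay in the first intron and 6 were found at all 3 days. Exonic PPSs of Sptb went from 25 to 65 in the lists of days 0 and 4.

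Cpeb4, a cytoplasmic polyadenylation element binding protein that restrains translation in late erythroid cells, had 2 and 4, then 24 and 46, then 121 and 115 PPSs. In Sptb and Cpeb4 the groups of days 0, 2 and 4 did not overlap. Asap1 went from 8.15 and 6.15 to 10.0 and 12.7 per 1000 and Camta1, a calmodulin-binding transcription activator, from 1.48 and 1.04 to 4.94 and 6.04. In Camta1 sites lay mostly before the midpoint of the gene, with 50 of 50 there at day 0, 137 of 137 at day 2, and 210 of 237 at day 4.

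**Figure D3:**
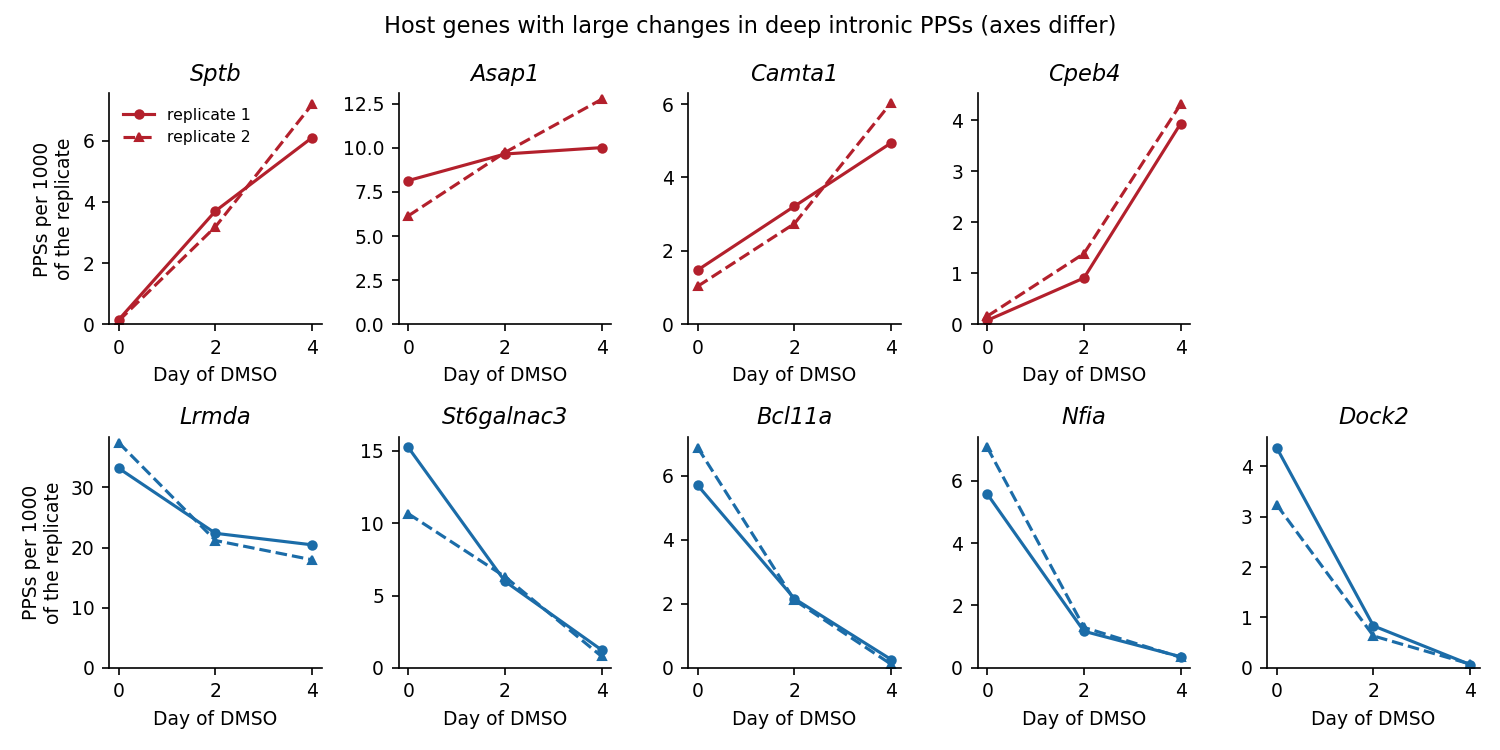
Deep intronic PPSs per 1000 of the replicate (y axis, scale differs by panel) at days 0, 2 and 4 of DMSO (x axis) in 4 genes with a large difference upward (top, red) and the 5 with the largest downward (bottom, blue) from day 0 to day 4, with a line for each replicate. In each gene shown both replicates of day 4 lie on one side of both replicates of day 0.

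The 5 genes with the largest difference downward were Lrmda, St6galnac3, Bcl11a, Nfia and Dock2. Bcl11a, a transcriptional repressor of fetal globin genes, had 146 and 172 PPSs at day 0, 57 and 70 at day 2, and 8 and 3 at day 4. Nfia, a transcription factor of the nuclear factor I family, had 143 and 177, then 31 and 43, then 11 and 9. Dock2, a Rac activator of blood cells, had 112 and 81, then 22 and 21, then 2 and 2. In Bcl11a, Nfia and Dock2 both replicates of day 2 lay below both of day 0, and both of day 4 below both of day 2. Exonic PPSs of the lists went from 49 to 8 in Bcl11a, 8 to 1 in Nfia and 35 to 9 in Dock2.

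Lrmda and St6galnac3, which were among the leading hosts by number of regions, had the largest downward differences per 1000. Lrmda went from 851 and 937 PPSs (33.2 and 37.4 per 1000) to 629 and 479 (20.4 and 18.0), and St6galnac3 from 391 and 267 (15.2 and 10.7) to 38 and 21 (1.24 and 0.787). These values pool the nucleases. In Lrmda the number fell with ssRNase, from 759 and 820 to 370 and 335. With dsRNase it went from 212 and 277 to 386 and 238, without a fall in replicate 1. St6galnac3 was lower with both, from 348 and 209 to 18 and 17 and from 88 and 102 to 24 and 8. In both genes the replicates of days 0 and 4 were far apart. In Lrmda 368 regions were present at all 3 days, and in St6galnac3 29. In both, and in Nfia, sites leaned to the part before the midpoint of the gene, which held 76.8%, 78.4% and 92.1% of their PPSs and 50.3%, 50.9% and 51.3% of their eligible sequence. Dock2 leaned the other way, with 31.6% of its PPSs before the midpoint, where it had 51.4% of its eligible sequence. The calls of these 5 genes and of Sptb, Cpeb4, Asap1 and Camta1 kept their direction when genes were scaled within the strand.

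**Figure D4:**
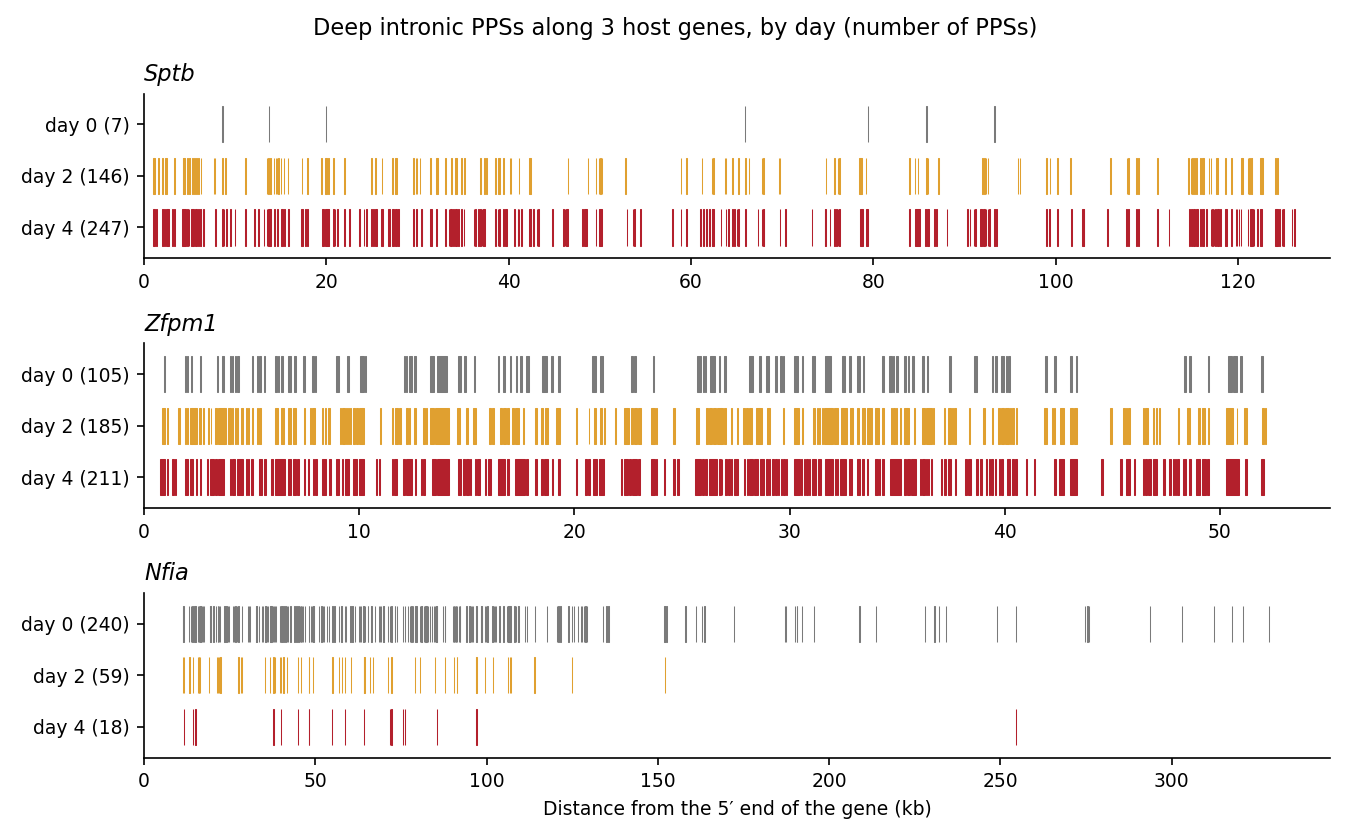
Deep intronic PPSs drawn to scale along Sptb, Zfpm1 and Nfia by distance from the 5′ end of the gene in kb (x axis), with a row for the list of each day and its number of PPSs in brackets. Sptb goes from 7 to 247 PPSs and Zfpm1 from 105 to 211 between days 0 and 4, while Nfia goes from 240 to 18, with 216 of its day 0 sites before the midpoint.

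By list, more erythroid genes were higher than lower at day 4, and more progenitor genes lower than higher. The lists were chosen with earlier results of these data known, so their counts are descriptions. Of 29 tested genes for erythroid regulators, heme synthesis and the membrane, 18 were higher and 5 lower at day 4, beside 27.8% and 31.5% of all host genes (16 and 6 when scaled within the strand). The median difference was 0.125 per 1000, and 0 over all tested genes. The list was also dense, with a median of 15.9 regions per 10 kb against 3.40 over all tested genes.

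Of the membrane genes beside Sptb, Ank1, Epb41 and Gypc were called higher. Ank1, the ankyrin that ties spectrin to the membrane, went from 12 and 25 PPSs at day 0 to 138 and 104 at day 4, and Epb41, protein 4.1, from 37 and 28 to 132 and 143. Gypc, a glycophorin, went from 4 and 2 to 46 and 46. In heme synthesis Fech, the enzyme that inserts iron, had no deep intronic PPS in either replicate of day 0 and 32 in each of day 4, while Alas2, the first enzyme of the pathway, went from 1 and 1 to 19 and 23, and Alad from 2 and 0 to 21 and 14. Slc25a37, the mitochondrial iron importer mitoferrin, went from 3 and 1 to 38 and 34. Zfpm1 went from 61 and 90 to 182 and 150. These genes of the list were named after their values were seen, except Sptb, Bcl11a and Zfpm1. The 5 called lower were Bcl11a, the erythroid regulator gene Lmo2, the heme enzyme gene Cpox, the adducin gene Add2 and Rhag, of the Rh complex.

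Of 15 tested progenitor and proliferation genes, 10 were lower and 2 higher at day 4 (11 and 2 within the strand), with a median difference of -0.28 per 1000. Runx1 went from 255 and 214 PPSs (9.94 and 8.54 per 1000) to 229 and 218 (7.44 and 8.17), a difference of -1.43. Within the minus strand, where it lies, the difference was -8.37 per 1000 PPSs of the strand, and Runx1 was then also lower at day 2. Ikzf1, which encodes the lymphoid and myeloid regulator Ikaros, went from 58 and 64 to 32 and 23, and the cell cycle regulator E2f3 from 69 and 51 to 29 and 26. Myb, required by dividing progenitors and named after its values were seen, had 14 and 6 PPSs at day 0 and none at day 4. The 2 called higher were Ccnd2, a cyclin, and Rb1, the retinoblastoma tumor suppressor.

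**Figure D5:**
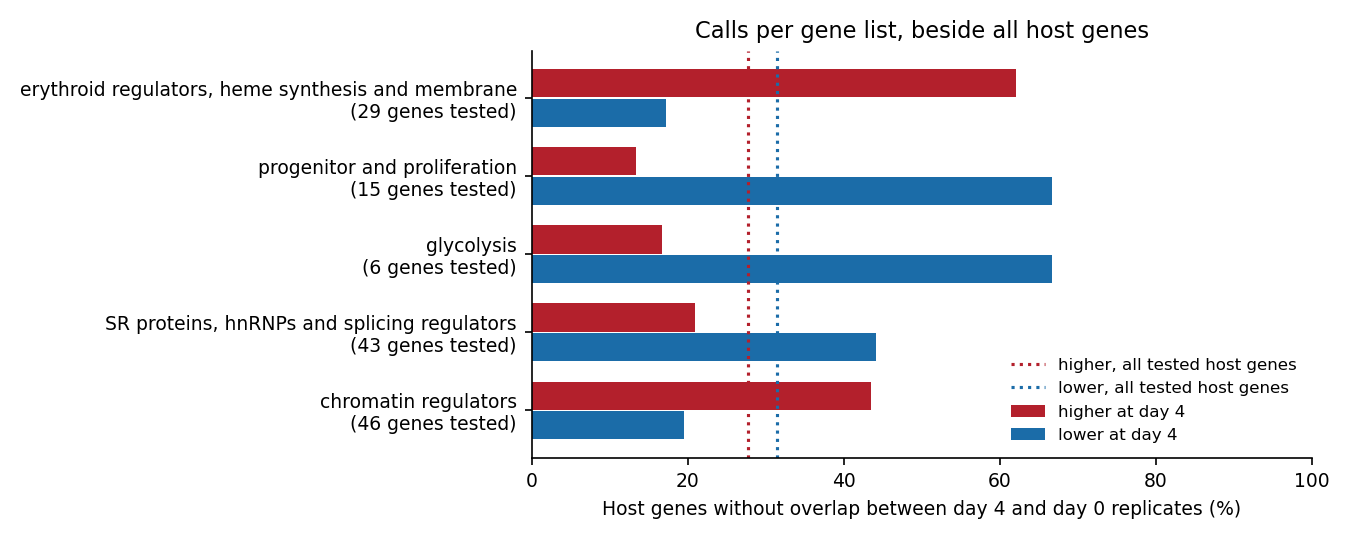
Percent of the tested host genes of each list (y axis, number tested in brackets) that were higher (red) or lower (blue) at day 4 than at day 0 without overlap of replicates; dotted lines are the shares over all 4175 tested host genes, 27.8% higher and 31.5% lower. The erythroid and chromatin lists are above the line for higher, and the progenitor, glycolysis and splicing lists above the line for lower.

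Of the other lists, the chromatin list had more genes higher and the splicing and glycolysis lists more genes lower, beside 27.8% higher and 31.5% lower over all host genes. Of 43 tested genes for SR proteins, hnRNPs and splicing regulators, 9 were higher and 19 lower (8 and 20 within the strand), and this list was dense too (median 16.9 regions per 10 kb). Its leading hosts were Mbnl1, a splicing factor whose 261 regions went from 3.90 and 4.47 to 3.51 and 2.92 PPSs per 1000 (lower, but overlapping within the strand), Celf1 with 59 regions, and Hnrnpm, which was higher at day 4 (0.702 and 0.399 against 1.14 and 1.01). Of 46 tested chromatin regulators, 20 were higher and 9 lower (21 and 9 within the strand). Arid1b and Arid1a, alternative subunits of the BAF remodelling complex, were called in opposite directions, the first higher (1.33 and 1.84 against 2.37 and 1.91) and the second lower (2.65 and 1.84 against 1.27 and 1.80). Kmt2c, a histone H3 lysine methyltransferase, was higher, from 22 and 23 PPSs to 52 and 60. Of 6 tested glycolysis genes 4 were lower, among them Gpi1 (12 and 12 to 1 and 1), and 1, Pfkp, was higher but overlapped within the strand, where 5 were lower and 0 higher.

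Clusters were defined as 3 or more regions of 1 host gene with gaps of at most 500 nt, with no test against random placement. There were 6932 clusters in 2086 genes, holding 34493 regions (40.4%). A cluster had a median of 4 regions over 822 nt, and 493 had 10 or more. Of the clusters 64.9% had regions at all 3 days, and of those with 10 or more regions 93.5%. First introns held 35.5% of the clustered and 29.2% of the other regions.

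The largest cluster lay in Zfpm1 at chr8:122307745-122325511 on the plus strand. It began 103 nt into intron 3, of 16058 nt, and ran past the end of that intron. Its 84 regions covered 59.6% of 17767 nt, and 37 were present at day 0, 57 at day 2 and 74 at day 4. A second Zfpm1 cluster of 52 regions spanned 10231 nt of intron 1, of 22835 nt, and another of 38 regions lay in the same intron. Gse1, a chromatin-associated gene, followed with 54 regions over 13785 nt of its first intron (30, 43 and 42 by day), and Stx16, a syntaxin of the endosomal pathway, with 53 over 13479 nt that began in intron 2 (40, 32 and 30). Lrmda had clusters of 52 and 49 regions in its second intron, Jade1, part of a histone acetyltransferase complex, 1 of 46 (37, 26 and 17), and Bcl2 1 of 44 (30, 33 and 23). The genes differed in direction. By PPSs per 1000, Gse1 (2.69 and 2.95 against 6.05 and 6.07) and Zfpm1 were higher at day 4, Jade1 (3.62 and 4.19 against 1.11 and 0.750) lower, and Bcl2 overlapped (lower within the strand).

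The highest scores belonged to long sites, several of them mostly repeats. The score is the authors' enrichment value, and how libraries were scaled in it is not stated. At day 0 and at day 2 the top site lay in intron 8 of Pfkp, the platelet phosphofructokinase gene, with a score of 449.21 over 2449 nt and 244.3 over 1119 nt, of which 97.7% and 98.5% of bases were soft-masked. Reads with up to 10 places in the genome were kept by the authors, so the source of such reads is uncertain. At day 4 the top site had no masked base: 165.84 over 625 nt in intron 6 of Stk3, a Hippo pathway kinase gene, with calls in both ssRNase replicates and 1 dsRNase replicate. Stk3 had 12 and 7 deep intronic PPSs at day 0 and 53 and 51 at day 4. The second site of day 4, of 417 nt with a score of 153.83, lay in intron 6 of Kel, the Kell blood group gene named after its score was seen, and had calls in all 4 sets of that day.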

How the data were processed

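PIP-seq of 24 libraries was analysed from 3 lists of PPSs, 1 per day. The submitters' processing notes name cutadapt 1.2.1, TopHat2 2.0.10 and mm10, and the methods state up to 10 hits per read and PPSs called with a modified CSAR at a 5% FDR. The deposited score is the authors' enrichment value of a PPS, never negative, with calls of several library pairs merged into 1 interval whose name lists the calls. Day, nuclease and replicate of each PPS were read from those names. Intervals were placed on GENCODE M21 with bedtools 2.31.1, and GC content and soft masking were read from GRCm38.p6. Intron order came from the transcript with the longest CDS. PPSs in several host genes went to the only gene with an established symbol (881 stayed without a host). Replicates were paired by day and replicate number, since the design splits each replicate between nucleases, and tests were exact sign-flip permutation tests (Python 3.11.15, numpy 2.4.6, pandas 2.3.3). Merged PPSs carry calls of several pairs, so replicates share intervals and the samples of the tests are not independent. The functions were tested on simulated data.

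Genes were named by rule: the 10 hosts with most regions, the 10 with most regions per 10 kb among those with 5 or more, the 5 largest gains and losses among called genes, the 3 leading hosts of each list, the hosts of the 8 largest clusters, and the host of the top score of each day, leaving out predicted, RIKEN and clone symbols. 1 of the upward genes is left out of the text. Sites, lists and tests were chosen with earlier results of these data known. Alternatives are given at the end. Scores and counts give no read depth, and no interval for counting error was computed.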

Additional observations from a re-analysis of the deposited data

Results flagged for a closer look

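From day 0 to day 4 the 2 nucleases moved in opposite directions, which led to a closer look. The number of deep intronic PPSs per library pair fell by 4280.5 on average with ssRNase, where both replicates of day 4 lay below both of day 0, and was higher by 9569 with dsRNase, where both lay above. As a percent of all PPSs of the pair, the ssRNase mean fell by 4.09 percentage points and the dsRNase mean was higher by 13.4. The number of all PPSs per pair moved the same ways. It went from 56044 and 50995 to 47625 and 48112 with ssRNase. With dsRNase it went from 27862 and 32624 to 54935 and 40195. In near-exon intronic sites too, the share seen with ssRNase alone was lower at day 4 (76.8% and 46.4%). The difference between the nucleases in this change was not tested.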

How the results depend on the processing

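The pairing of nucleases by day and replicate follows the design. With no replicate block (exact permutation of 6 against 6) the difference in deep intronic share, 17.1 percentage points, and the GC difference from coding sites, -5.62, passed 0.05 (adjusted p = 0.013 each), and no other call changed. Apart from these, the 12 comparisons stayed on their side of the threshold in every alternative run. This says nothing about their stability. With 6 pairs the smallest exact permutation p is 0.03125, so none could pass unless most of the 12 reached it. With 5 pairs it is 0.0625, and none could pass. The GC difference from near-exon sites, 0.0385 in the main setting, turned to -0.046 at a distance of 500 nt, -0.0289 with all lengths kept, -0.28 in PPSs of 1 replicate only and -0.37 without soft-masked sequence, and the length difference between nucleases turned to -1.33 nt at or above the median score.

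At or above the median score 25394, 27064 and 28555 PPSs remained by day, with 5842 regions at all 3 days, 31.8% in first introns and 3916 clusters. With calls of both replicates these were 10788, 13000, 13547, 1845, 32.7% and 1600. First introns held 34.4% at a distance of 500 nt. A gap of 200 nt left 4522 clusters. By plain number of PPSs 553 genes were lower at day 2.

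Leaving out each day-replicate in turn, the share difference between nucleases was 15.1 to 20.1 percentage points, their length difference 0 to 2 nt, GC difference 0.804 to 1.67 and first-intron difference 0.799 to 1.17. Against near-exon sites, the differences were -2.13 to -0.73 in ssRNase share, 1.6 to 2 nt in length, -0.041 to 0.14 in GC and -1.55 to -0.72 in single calls. Against coding sites they were 19.7 to 26.1, 2.2 to 3.2 nt, -5.72 to -5.37 and 3.36 to 5.77. No word could pass with 5 samples (0 to 0, smallest exact p = 0.0625), and none passed without masked sequence (0). Without it 6 words had the smallest exact permutation p of 6 samples, 0.03125, and could not pass after adjustment. In that setting GTGTGT turned to 0.12 and ACTAAC to 0.0326 percentage points. Without PPSs that touch a RefSeq exon, TGCATG also passed (-0.16, exact permutation adjusted p = 0.039). Regions at all 3 days numbered 7241 to 8074, clusters 5914 to 6235 and first-intron shares 31.2% to 31.4%. Genes higher numbered 1140 to 1728 at day 2 and 1130 to 1570 at day 4, and lower 978 to 1429 and 1271 to 1683. A day left with 1 replicate separates more easily. Alternatives on RefSeq exons, masked sequence and strand were chosen after seeing the data.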
